A study of Homo sapiens with 8 samples.

Results

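The CXXC zinc finger is a small zinc-binding fold that recognises CpG dinucleotides, in most of these proteins those without methylation. CXXC5 and 9 other genes that carry this finger were followed through RNA sequencing of 8 human cancer cell lines. These 10 genes are among 58202 listed by the files, each matched by its symbol to 1 Ensembl identifier, and all 10 were among the 15650 genes tested, those that reached an FPKM of 1 in 2 lines or more. FPKM scales fragments by transcript length and by the mapped fragments of a library, so levels of different genes can be set side by side. CXXC5 was chosen by its FPKM in the lung against the other lines, where earlier results of these data had shown it low. That difference is therefore described here without a test, and the other 9 genes were chosen for their finger.

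The lines express ERBB4, a neuregulin receptor, and the series was built around ibrutinib, a kinase inhibitor. By FPKM, ERBB4 was at 102 in H522, 85.3 in HEC59, 76.1 in H716, 36.3 in COV318, 33.8 in KLE, 28.7 in H661, 28.5 in 1321N1 and 13.4 in H146. Lung lines were H522 (non-small cell), H661 (large cell) and H146 (small cell), endometrial lines KLE (adenocarcinoma) and HEC59 (carcinoma). H716 came from a colorectal adenocarcinoma of the cecum, 1321N1 from a brain astrocytoma and COV318 from a serous ovarian carcinoma. Each was grown under its vendor's conditions, kept in plates for 48 hours and sequenced as 1 library, at passages between 3 and 15. Each line is 1 tumour, so the spread between lines of a tissue is a spread between tumours. The p-values set a difference against the spread between lines within each compared group. The group of other lines pools several tissues, so that spread also holds differences between tissues. The labels do not say which lines respond to ibrutinib, so response was not compared.

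The lines had 12205 to 13300 genes at an FPKM of 1 and above. Mitochondrial genes took 4.37% to 16.1% of the summed FPKM (values over 100000 left out), most in HEC59 (16.1%) and H146 (13.1%), which also had the lowest upper quartiles (15.5 and 15.2). Both lines are at an end of several orders given here, and the part of this in them was not tested. The absolute depth is unknown, and relative depth, read from the steps of the lowest values, ranged from 1 in KLE to 2.66 in 1321N1. Those steps also divided the libraries into 2 sets, one of KLE, H522, H716 and H661, the other of H146, COV318, 1321N1 and HEC59. Labelled tissues were unevenly marked. NKX2-1, a lung lineage factor, reached an FPKM of 1 only in H661 among the lung lines, and SFTPA1 was listed at 0 in all lines. In H716 the intestinal cadherin CDH17 was at 137. PAX8, a factor of the Mullerian tract, was at 45.7 to 185 in KLE, HEC59 and COV318. In 1321N1 GFAP was at 3.10 and OLIG1 at 0. Of 5 glial markers 1 reached an FPKM of 1 in 1321N1, against 2 in H146, 1 in KLE and none elsewhere. Of 6 neuroendocrine markers 5 did in H146, 4 in H716, 1 in H522 and none elsewhere. Of the 4 immune markers none reached 1 in any line.

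In textbook terms the finger serves several opposed functions. TET1 and TET3 oxidise methylcytosine, DNMT1 copies methylation to the new DNA strand, and MBD1 binds methylated DNA to repress it. CXXC1 brings the SET1 methyltransferase of histone H3 lysine 4 to CpG islands, while KDM2A and KDM2B remove methyl groups from histone H3 lysine 36. CXXC5 and CXXC4 are short paralogs that bind Dishevelled and restrain WNT signalling.

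CpG is what the finger reads, so start regions were searched for CG, whose reverse complement is also CG. Windows from 250 bases before to 50 after each RefSeq start (GRCh38.p14, while the FPKM files rest on GRCh37) were available for all 10 genes, with 26 starts. At least 1 start held 20 or more CG in 8 of 10 members (80.0%), against 44.7% of the genes in the table. A gene with more starts has more chances to reach this. The 10 members had 26 starts, while the 27305 genes of the table had 35116. Genes of the table, here and in the counts by start, were not limited to tested genes, while all 10 members were tested. No CpG richness of the members is therefore read from this share. By start, 13 of 26 held 20 or more in the members, against 41.2% of all starts, and the median per start was 18.5 in the members and 14.0 in all 35116 starts. The most CG-rich start of each gene of the paralog pairs CXXC5 and CXXC4, and TET1 and TET3, is shown because the former pair parted across lines and the latter ran together. CG is in capitals and each window runs 5′ to 3′. They are CXXC5 (chr5:139648701-139649000, plus strand), CXXC4 (chr4:104494845-104495144, minus strand), TET1 (chr10:68600224-68600523, plus strand) and TET3 (chr2:73984660-73984959, plus strand).
CXXC5: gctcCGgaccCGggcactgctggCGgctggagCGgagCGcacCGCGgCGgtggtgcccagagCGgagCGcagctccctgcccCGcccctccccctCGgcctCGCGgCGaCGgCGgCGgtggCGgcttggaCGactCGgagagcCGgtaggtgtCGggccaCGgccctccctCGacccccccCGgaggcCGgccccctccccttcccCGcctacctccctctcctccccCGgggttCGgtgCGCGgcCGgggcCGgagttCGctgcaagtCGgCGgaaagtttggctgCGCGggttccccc
CXXC4: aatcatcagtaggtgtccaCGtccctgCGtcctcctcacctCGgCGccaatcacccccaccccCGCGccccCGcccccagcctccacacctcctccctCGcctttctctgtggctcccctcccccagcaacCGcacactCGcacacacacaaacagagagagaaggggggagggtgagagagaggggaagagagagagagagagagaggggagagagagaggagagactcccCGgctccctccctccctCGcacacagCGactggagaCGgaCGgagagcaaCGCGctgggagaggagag
TET1: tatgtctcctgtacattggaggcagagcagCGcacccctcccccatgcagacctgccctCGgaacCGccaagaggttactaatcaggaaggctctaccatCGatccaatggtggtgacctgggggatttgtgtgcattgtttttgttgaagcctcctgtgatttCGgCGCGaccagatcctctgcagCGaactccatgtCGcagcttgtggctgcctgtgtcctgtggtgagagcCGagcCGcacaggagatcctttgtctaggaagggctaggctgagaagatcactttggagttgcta
TET3: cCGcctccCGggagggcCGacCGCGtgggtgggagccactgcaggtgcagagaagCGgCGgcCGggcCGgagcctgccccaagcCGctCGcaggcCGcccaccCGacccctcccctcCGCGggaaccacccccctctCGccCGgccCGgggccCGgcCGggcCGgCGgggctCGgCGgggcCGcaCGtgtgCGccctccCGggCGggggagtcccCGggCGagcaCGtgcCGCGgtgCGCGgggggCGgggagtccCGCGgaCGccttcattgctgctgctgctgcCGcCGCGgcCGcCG
The CXXC5 window held 39 CG and that of TET3 45, against 17 for CXXC4 and 11 for TET1. CXXC5 has 7 starts in the table, and which of them was used in a line is not measured by FPKM. Methylation was not measured either.

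CXXC5 (ENSG00000171604) formed a high and a low level with nothing between. In the lung lines its FPKM stood at 2.76 (H146), 5.87 (H661) and 9.89 (H522), against 72.4 in HEC59, 82.4 in KLE, 83.9 in H716, 84.1 in 1321N1 and 104 in COV318. The lowest non-lung line thus stood 7.32-fold above the highest lung line. The 5 non-lung lines, from 4 tissues, lay within 1.44-fold of each other, so their order carries little, while the 3 lung lines spanned 3.58-fold. On the log2(FPKM + 1) scale lung lines averaged 2.71 ± 0.77 (SD, n = 3) and non-lung lines 6.42 ± 0.19 (SD, n = 5), a difference of -3.71 (SE 0.375). Of all tested genes 2.23% were lower in every lung line than in any other line, 2.07% were higher and 4.3% were one or the other. Nothing is read from these shares for CXXC5, since this comparison chose it. Within the first set of libraries KLE and H716 were at least 8.33-fold above H522 and H661, and within the other the 3 non-lung lines at least 26.2-fold above H146. In bulk RNA fewer cells with a transcript and less of it per cell cannot be told apart. CXXC5-AS1, which overlaps the gene on the other strand in GENCODE v29, was listed at 0 in every line.

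**Figure D1:**
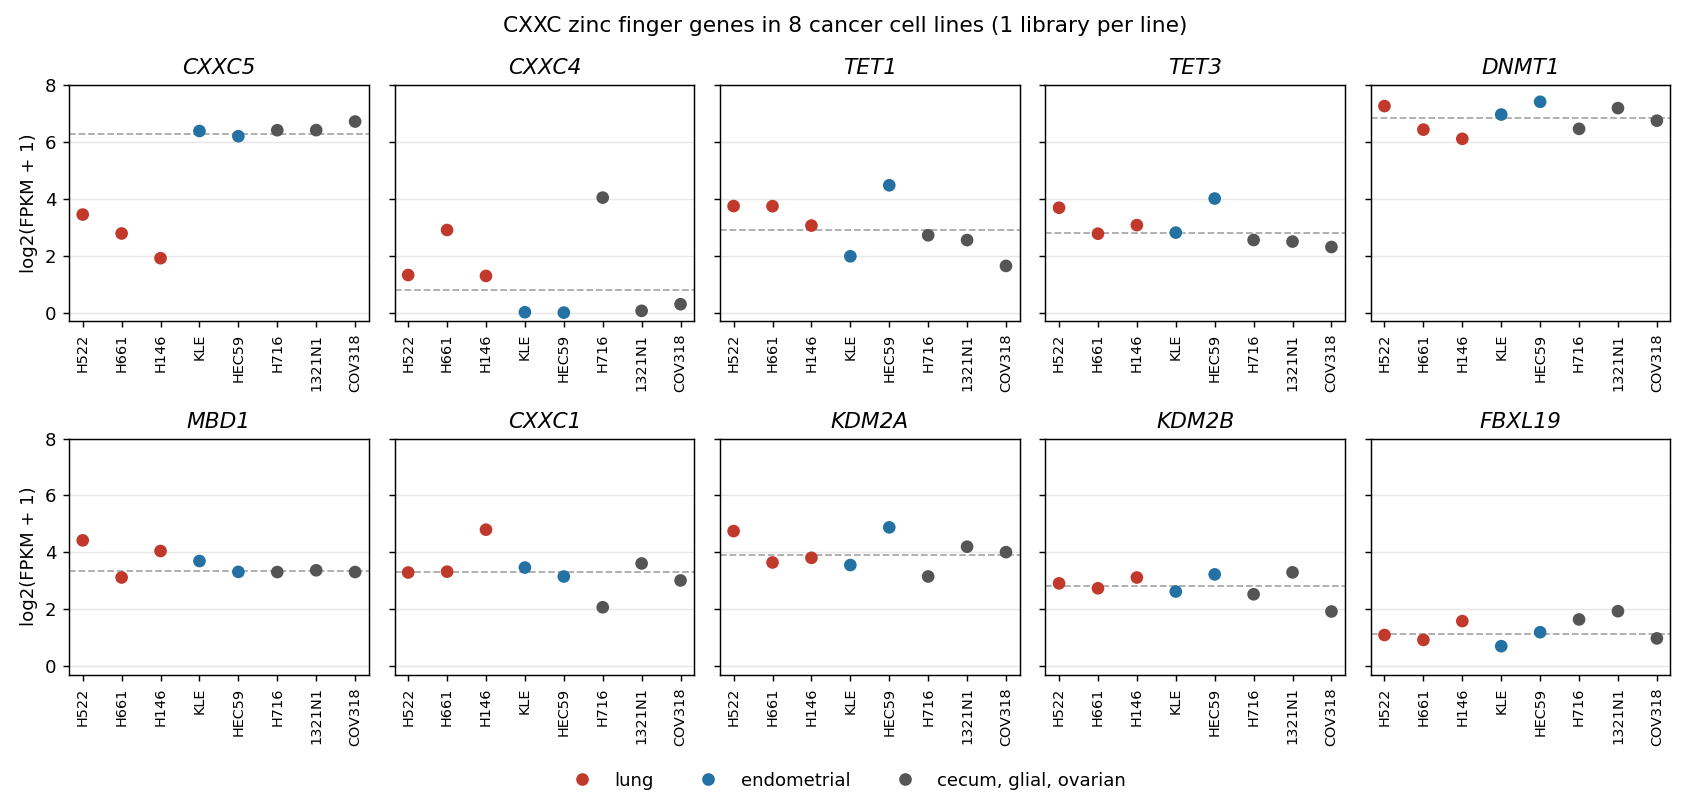
Level of each of the 10 genes, as log2(FPKM + 1), in every line; 1 point is 1 library, the dashed line is the median of the 8 lines and colour marks the tissue. CXXC5 has a gap between 9.89 in H522 and 72.4 in HEC59 (FPKM), while DNMT1 stays high and FBXL19 low throughout.

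CXXC4 (ENSG00000168772), the paralog of CXXC5, was nearly silent in lines where CXXC5 was high, with H716 as the exception. It was at 15.5 in H716, 6.47 in H661, 1.497 in H522 and 1.44 in H146, at 0.227 in COV318, 0.0440 in 1321N1 and 0.00903 in KLE, and listed at 0 in HEC59. H716 therefore held both paralogs at a high level, and the other 4 non-lung lines held CXXC5 almost alone. In H661 the order turned, with 0.907 CXXC5 for each CXXC4, against 6.61 in H522 and 1.91 in H146. The lung lines overlapped with H716, and CXXC4 did not differ by the test (log2 difference from the other lines 0.95, SE 0.945, limma adjusted p = 0.925). Both endometrial lines lay below the other 6 without overlap, but at levels near 0 and only just below 1321N1, so nothing is read from this order. Of all tested genes 4.53% lay below in this way, 2.43% above and 6.96% either way. That difference did not pass either (-1.64, SE 0.979, limma adjusted p = 0.954). CXXC4 passed the filter on low values through H716 and the lung lines. Its lung difference was 0.422 without H661 and 1.74 without H716. It also moved with the pseudocount, to 2.73 with one of 0.1 and 0.225 with one of 5.

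The TET enzymes were led by HEC59. TET1 (ENSG00000138336) was at 21.2 in HEC59, 12.4 in both H522 and H661, 7.33 in H146, 5.57 in H716, 4.85 in 1321N1, 2.94 in KLE and 2.12 in COV318, a 10.03-fold span. The endometrial pair thus held both its top and its second lowest value. TET3 (ENSG00000187605) was at 15.1 in HEC59, 11.9 in H522 and 7.42 in H146, at 5.83 to 6.02 in H661 and KLE, and at 3.94 to 4.86 in H716, 1321N1 and COV318. HEC59 and H522 were highest, and the other lines ran on below them without a clear break. TET2, the third enzyme, has no CXXC finger of its own and varied less, from 6.22 in H146 to 18.7 in HEC59. By summed FPKM, TET2 made up 71.6% of the TET transcripts in COV318 and 54.7% to 58.9% in KLE, 1321N1 and H716, but 29.7% to 37.5% in the lung lines and 34.0% in HEC59. TET1 made up 9.92% in COV318 and 42.5% in H661. In the lung lines TET1 had a higher mean (log2 difference 0.84, SE 0.618, limma adjusted p = 0.879) and so had TET3 (0.34, SE 0.472, adjusted p = 0.957), and neither passed. Without single lines the TET1 value ran from 0.584 (COV318 left out) to 1.29 (HEC59), and that of TET3 from 0.0894 (H522) to 0.637 (HEC59).

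DNMT1 (ENSG00000130816), the maintenance methyltransferase, was the most abundant of the 10 in all 8 lines, and its mean level was above 96.7% of tested genes. It ran from 67.9 in H146 and 85.2 in H661 through 86.9 in H716, 106 in COV318, 123 in KLE and 145 in 1321N1 to 152 in H522 and 169 in HEC59. The lung lines held its lowest values and its second highest (log2 difference -0.35, SE 0.362, limma adjusted p = 0.926), and the difference was -0.683 without H522 and -0.108 without H146. DNMT1 exceeded the sum of DNMT3A and DNMT3B, the enzymes that set new methylation, by unequal factors. These were 27.2-fold in 1321N1 and 21.8-fold in HEC59, but 4.01-fold in COV318 and 2.92-fold in H146. DNMT3A was lowest in the lines with most DNMT1, at 2.33 in HEC59, 3.37 in 1321N1 and 7.27 in H522, against 10.3 to 25.4 elsewhere. DNMT3B did not share this order, at 5.41 in HEC59 and 0.832 in H716. A correlation of either with DNMT1 was not computed. PCNA, the replication clamp that DNMT1 binds, was at 147 in H146 where DNMT1 was lowest, and at 21.8 in HEC59 where it was highest. These are the end lines alone, so no relation over the 8 lines is read from them. Between them, DNMT1 was at 0.918 of PCNA in COV318 and at 1.74-fold (H661) to 3.01-fold (H522) in the rest. S1PR2 overlaps DNMT1 in GENCODE v29 and was at most at 3.74.

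MBD1 (ENSG00000141644) was flat outside the lung lines and KLE. It was at 8.91 in H716 and COV318, 8.95 in HEC59, 9.34 in 1321N1 and 12.0 in KLE, and at 20.4 in H522, 15.5 in H146 and 7.68 in H661. The lung lines thus gave its highest pair and its lowest value (log2 difference 0.46, SE 0.374, limma adjusted p = 0.898), and the difference was 0.184 without H522 and 0.836 without H661. CXXC1 (ENSG00000154832) lies next to MBD1 among coding genes of the RefSeq order, and the pair shared its high line H146 but not H522. CXXC1 was at 26.8 in H146, at 7.07 to 11.2 in 6 lines and at 3.20 in H716. H146 carries most of its lung difference (0.74, SE 0.502, limma adjusted p = 0.875), which was 0.246 without that line.

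The KDM2 genes and FBXL19 are F-box proteins. KDM2A (ENSG00000173120) was at 28.4 in HEC59 and 25.9 in H522, at 10.7 to 17.4 in 5 lines and at 7.89 in H716. KDM2B (ENSG00000089094), which recruits a polycomb complex to CpG islands, was lower and narrower, from 2.79 in COV318 to 8.83 in 1321N1 with the lung lines at 5.67 to 7.68. KDM2A exceeded KDM2B in all lines, by 5.41-fold in COV318, 3.97-fold in H522 and 1.66-fold in H716. Part of KDM2B overlaps RNF34, at 13.2 to 33.9, and the sources used here do not give whether reads were assigned by strand. FBXL19 (ENSG00000099364), a subunit of a ubiquitin ligase, had the lowest median of the members detected in every line, from 0.628 in KLE to 2.82 in 1321N1. Its antisense partner FBXL19-AS1 was at 0.435 to 0.753, which is close to FBXL19 itself in KLE. AC135048.1, which overlaps FBXL19 on the same strand, was above it in KLE (0.802 against 0.628) and H661 (1.12 against 0.897) and below it in the other lines. Lung differences were 0.11 (SE 0.462) for KDM2A, 0.20 (SE 0.416) for KDM2B and -0.09 (SE 0.403) for FBXL19, with limma adjusted p of 0.984, 0.970 and 0.985. Without COV318 that of KDM2B was 0.00324, and without H522 that of KDM2A was -0.231.

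Spread across lines ranked the members differently from level. The SD of log2(FPKM + 1) over 8 lines was 1.97 for CXXC5 and 1.51 for CXXC4, above 95.2% and 89.6% of tested genes. It was 0.96 for TET1 (73.6%) and 0.75 for CXXC1 (59.3%). For the others it was 0.42 to 0.60, above 14.5% of tested genes for FBXL19 and 40.8% for TET3. CXXC5 was the 1 member of 10 without overlap between lung and other lines, beside 4.3% of all tested genes. That gap chose it, so neither this count nor its SD is a result.

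None of the other 9 members passed the lung or the endometrial comparison, nor was any at an unadjusted p under 0.05 in limma. Among all genes 0.0256% were called for lung (4 of 15650, 0.0192% higher and 0.00639% lower) and 0.00639% for endometrial lines (1 gene), so few calls could fall on the members. At an unadjusted p under 0.05 the shares were 5.94% and 4.82%. In the lung comparison 7 of the 10 members had a higher mean (median 0.27, against -0.02 over all tested genes), and in the endometrial comparison 6 of 10 (median 0.23, against -0.11). Both comparisons share lines. The endometrial differences were 0.60 (SE 0.507) for TET3, 0.49 (SE 0.393) for DNMT1, 0.32 (SE 0.750) for TET1 and 0.29 (SE 0.507) for KDM2A, with HEC59 above KLE in each, for DNMT1 at 169 against 123. The 6 higher members also include KDM2B (0.17) and CXXC5 (1.68), whose value restates the lung gap. A lower mean was found for 4 members: CXXC4 (-1.64), FBXL19 (-0.41), MBD1 (-0.09) and CXXC1 (-0.04).

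**Figure D2:**
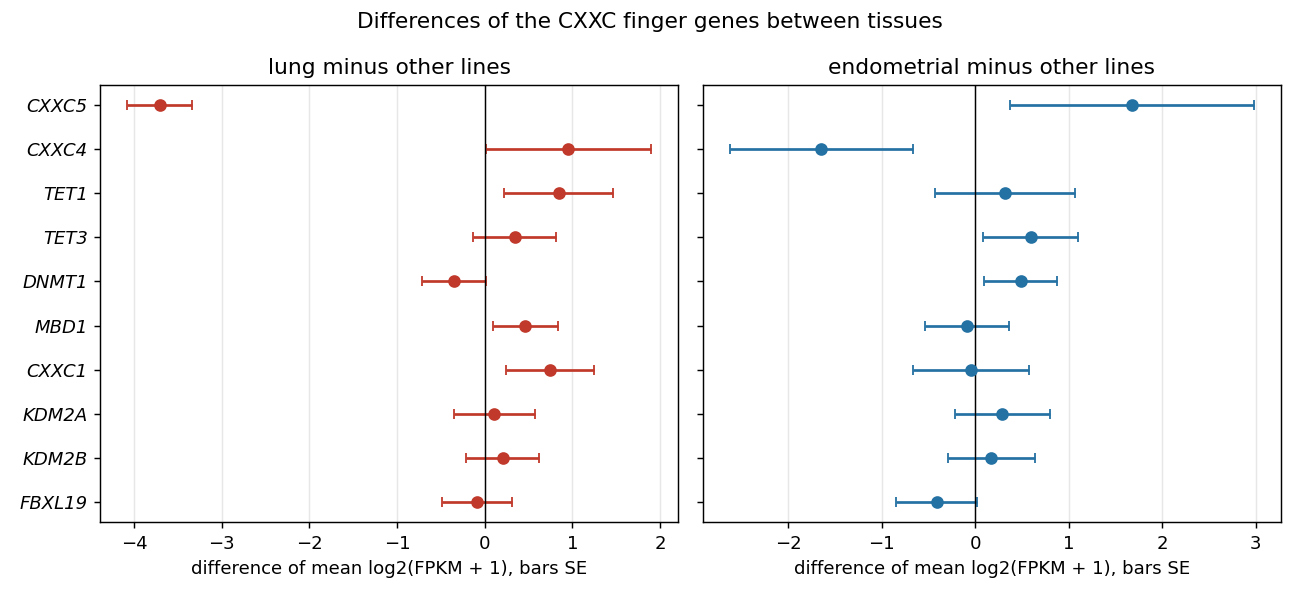
Difference of mean log2(FPKM + 1) for each gene, lung lines minus the other 5 on the left and endometrial lines minus the other 6 on the right, with bars of 1 SE from limma. CXXC5 lies at -3.71 in the lung panel, and the other genes lie between -0.35 and 0.95 there.

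Some members followed each other over the 8 lines. Of the 45 pairs, 3 had a Pearson's r of 0.7 or more: TET1 with TET3 (0.826), DNMT1 with KDM2A (0.752) and TET3 with KDM2A (0.736). None was at -0.7 or below, though with values centred within the sets of libraries CXXC5 with CXXC1 was at -0.764, and by Spearman's rho CXXC5 with TET3 was at -0.714. HEC59 and H522 are at or near the top of all 4 genes, and with single lines left out r ran from 0.695 to 0.921 for TET1 with TET3, 0.645 to 0.865 for DNMT1 with KDM2A and 0.551 to 0.829 for TET3 with KDM2A. With centred values these were 0.829, 0.782 and 0.799, and Spearman's rho was 0.810, 0.714 and 0.405, the last well below its r. CXXC5 ran against CXXC1 (r = -0.618), which rests on H146: without it r was -0.244. CXXC5 with CXXC4 gave -0.312, and -0.825 without H716. These values describe 8 lines from unlike tumours, in libraries of unequal depth.

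**Figure D3:**
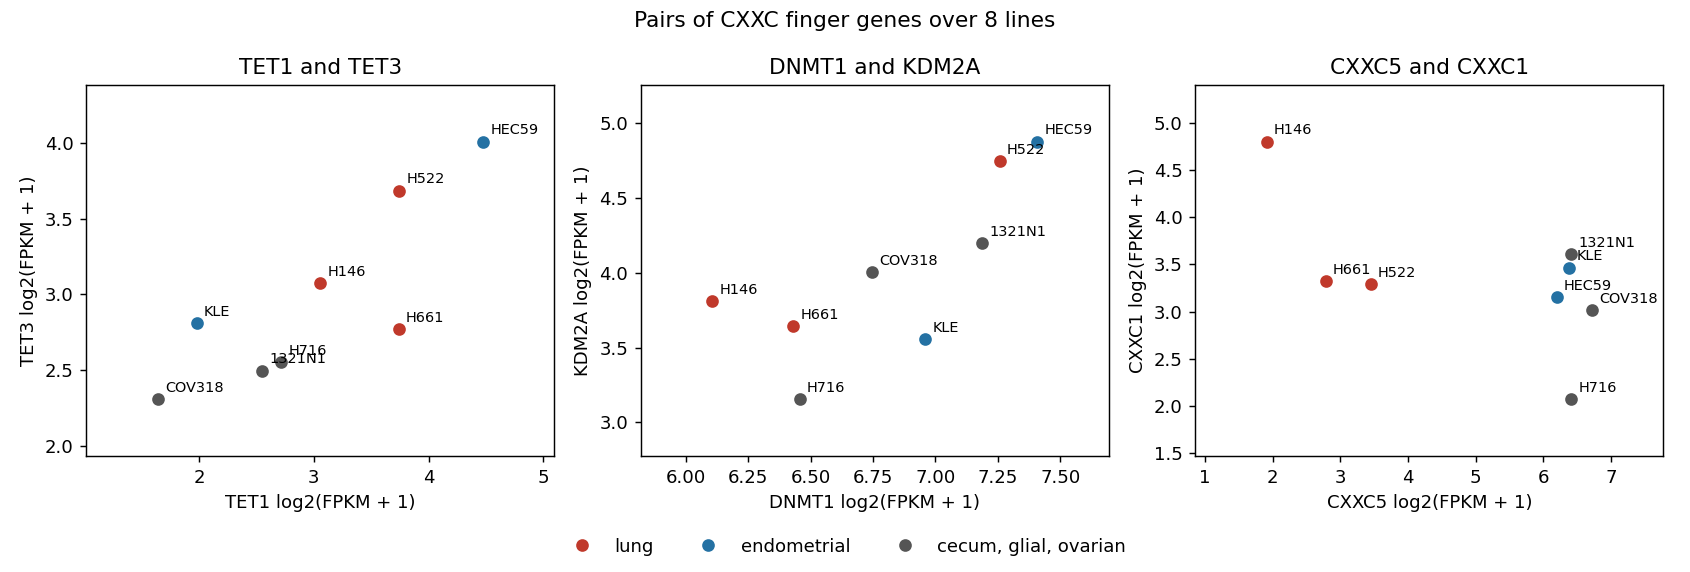
Each point is 1 line, placed by log2(FPKM + 1) of the named genes and coloured by tissue. TET1 with TET3 (r = 0.826) and DNMT1 with KDM2A (r = 0.752) share HEC59 and H522 at the upper right, while CXXC5 with CXXC1 (r = -0.618) shows H146 alone at the upper left.

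The coding neighbours of CXXC5 on chromosome 5 were read next. Of the 3 on each side in RefSeq order, 4 were in the files. STING1, listed as TMEM173 and encoding the adaptor of cytosolic DNA sensing, lies beyond UBE2D2 on the side before CXXC5 in the table's order. STING1 stood at 0.0111 in H146, 0.285 in H522 and 0.628 in H661, against 6.49 in COV318, 9.22 in H716, 11.8 in KLE, 13.4 in HEC59 and 24.4 in 1321N1. Its lowest non-lung line was 10.3-fold above its highest lung line, the same lines apart as for CXXC5, a likeness already known from earlier results of these data and so no separate support. The lung difference was -3.33 (SE 0.461), given without a test because this gap was known and STING1 passed the filter through the non-lung lines alone. UBE2D2, a ubiquitin-conjugating enzyme gene between STING1 and CXXC5, did not share this gap over all lines: lung values were 14.5, 30.0 and 39.0, and the others 29.3 to 61.1 (-0.81, SE 0.396, limma adjusted p = 0.829). Within the sets of libraries its non-lung lines did lie above the lung lines, by at least 1.12-fold and 2.02-fold. On the side after CXXC5, PSD2 was at most at 0.209. NRG2, which encodes an ERBB ligand, was at 2.49 in 1321N1, 1.68 in H661, 1.59 in H522 and 1.07 in HEC59 and at most at 0.0461 elsewhere (0.34, SE 0.546, limma adjusted p = 0.962). In a wider window of 15 coding genes on each side, chosen after these values were seen, 21 neighbours passed the filter. STING1 was the 1 neighbour of 21 without overlap between lung and other lines, a share near the 4.3% of all tested genes. Counting STING1, 16 of 21 had a lower mean in the lung lines (median -0.35, against -0.02 over all tested genes). The share of all tested genes with a lower lung mean was not counted. H146, with an upper quartile of 15.2, was the lowest line for many of these neighbours, HSPA9, SIL1, PURA and SRA1 among them, though not for CTNNA1 or DNAJC18. How far this 1 library carries the count was not tested. 

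**Figure D4:**
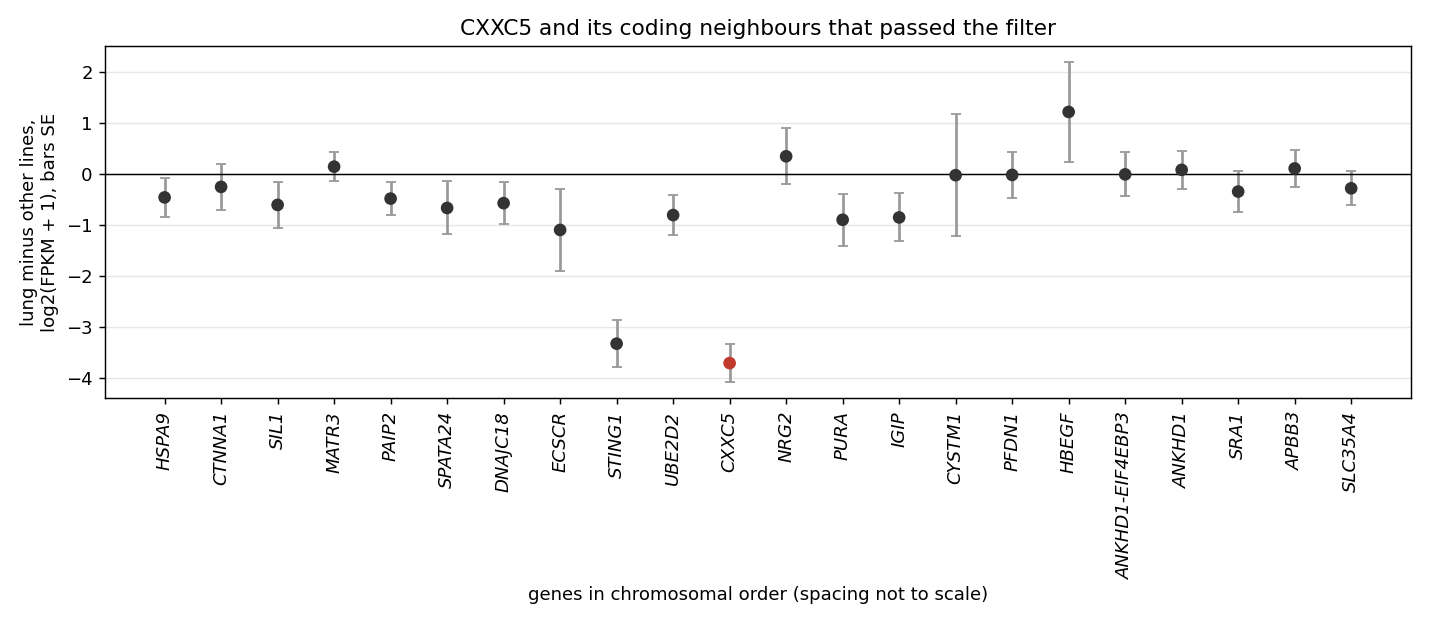
Lung minus other lines, as difference of mean log2(FPKM + 1) with bars of 1 SE, for CXXC5 (red) and the 21 coding neighbours that passed the filter, in chromosomal order without scale. STING1 (-3.33) and CXXC5 (-3.71) lie apart from UBE2D2 (-0.81) between them.

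The genes most like CXXC5 over the 8 lines, by Pearson's r among tested genes, divide lung from other lines by construction, since they were picked for likeness to a gene with that gap. Only 1 of the 10 was among the 5 at its end by Spearman's rho. PIEZO1, a mechanosensitive channel gene, had r = 0.976, LYRM7 0.971, DCP1B, a decapping factor gene, 0.964, RPL13, a ribosomal protein gene, 0.961 and MGMT, a DNA repair gene, 0.958. For PIEZO1 lung lines read 0.623 to 2.82 and non-lung lines 9.24 to 16.6. For MGMT they read 0.869 to 3.82 and 7.08 to 9.69. At the other end were TMEM35 (-0.997), BARX1 (-0.994), a homeobox gene, the short RNA entry Metazoa_SRP (-0.980), LOC101928274 (-0.976) and the cadherin CDH7 (-0.972). Lung lines had BARX1 at 3.36 to 5.63, and no other line exceeded 0.0442. TMEM35, BARX1, Metazoa_SRP and CDH7 passed the filter through lung lines alone. Likeness to TET1 picked other genes: ZNF852 (0.966), TRIM52 (0.931), UTRN (0.926), RP11-354P11.8 (0.926) and TTYH2 (0.922) at one end. At the other were SMAD7 (-0.964), an inhibitor of BMP and TGF-beta signalling, C14orf93 (-0.963), FBXL5 (-0.961), the leptin receptor gene LEPR (-0.957) and RP11-297K8.2 (-0.954). SMAD7 was at 11.3 in COV318 and 7.36 in KLE, where TET1 was lowest, and at 1.82 in HEC59, where it was highest. This opposite order also holds by construction, since SMAD7 was picked for it among all tested genes.

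Genes that work with the members were read from 8 lists of 90 genes, of which 83 were tested. None passed in limma, for lung or endometrial lines, where 0.0256% and 0.00639% of all tested genes did. At an unadjusted p under 0.05 were 5 and 0 of the 83, against 5.94% and 4.82% of all tested genes. Without overlap between lung and other lines were 4 of 83 (4.82%, against 4.3% of all tested genes): BCORL1, NKD1 and KDM4C higher and ID1 lower. No gene of the lists was without overlap in the endometrial comparison, against 6.96% of all tested genes. Medians given below for the lists are lung differences, against -0.02 over all tested genes. The share of all tested genes with a higher or lower lung mean was not counted. Nothing is therefore read from the counts of higher or lower means in the lists.

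KMT2A and KMT2B, the other H3 lysine 4 methyltransferases with a CXXC finger, parted. KMT2A was at 79.1 in H522 and 58.8 in H661 but at 24.8 in H146, within the 15.9 to 31.9 of the other lines (log2 difference 1.03, SE 0.434, limma adjusted p = 0.821). KMT2B, listed as WBP7, was at 12.7 in KLE and at 2.09 to 5.72 elsewhere (-0.09, SE 0.509, limma adjusted p = 0.988). Of the 11 genes of the SET1 and MLL complexes, partners of CXXC1 among them, 9 had a higher mean in the lung lines (median 0.18) and none passed. DPY30 was at 41.4 to 153, HCFC1 at 13.3 to 35.9 and KMT2C at 14.1 to 35.4.

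Among 9 tested polycomb partners of KDM2B none passed (median 0.12). SKP1, the F-box adaptor, was at 52.8 to 144, USP7 at 38.0 to 100 and RNF2, the ligase subunit, at 10.8 to 47.0. BCORL1, a corepressor chosen here after its values were seen, stood at 7.03 in H146, 19.9 in H661 and 23.0 in H522, and at 2.63 to 6.19 elsewhere (1.79, SE 0.467, limma adjusted p = 0.474). Of 11 tested writers and readers of DNA methylation, 9 had a higher lung mean (median 0.27), led in level by PCNA, MBD2 at 18.8 to 32.7 and MBD4 at 11.7 to 28.3. Of 10 genes of demethylation and repair, 4 did (median -0.11). APEX1, an endonuclease of base excision repair, was at 168 to 530, IDH1 at 17.6 in H146 and 52.6 to 122 elsewhere, and OGT at 18.2 to 41.5.

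In the list of Dishevelled and WNT target genes, 7 of 14 had a higher lung mean (median 0.02). DVL3, the most abundant Dishevelled, was at 14.97 to 27.4 and did not separate the lines with high and low CXXC5. CTNNB1, encoding beta-catenin, was at 40.5 to 122. LGR5, a stem cell receptor and WNT target, was at 130 in HEC59 and 15.96 in COV318 and at most at 5.79 elsewhere (-2.74, SE 1.32, limma adjusted p = 0.829). The BMP list holds ligands, receptors, targets and inhibitors. Of its 17 tested genes 12 had a lower lung mean (median -0.36, against -0.02 over all tested genes) and none passed. ID1, an inhibitor of differentiation and classic BMP target, was at 10.2 in H146, 32.7 in H522 and 33.3 in H661, against 49.8 in HEC59, 77.3 in H716, 128 in KLE, 132 in 1321N1 and 186 in COV318 (-2.16, SE 0.529, limma adjusted p = 0.435). ID3 was at 116 in H522 and overlapped (-1.57, SE 0.904, limma adjusted p = 0.863), as did ID2 (0.18, SE 0.569, limma adjusted p = 0.979). The 10 genes of lysine 36 demethylation and of F-box ligases had a median of -0.04. RHOA was at 268 to 784 and RAC1 at 164 to 682.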

How the data were processed

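RNA from 8 cell lines was sequenced as 1 library each. The authors deposited FPKM values per Ensembl gene with symbols, per the file headers. CASAVA 1.4, TopHat2 2.0.8, SAMtools 1.0 and the build GRCh37 are named in the submitters' processing notes. The sources used here do not give the FPKM program, annotation release or strand setting. FPKM hold no read totals, so no counting intervals are given.

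From these, log2(FPKM + 1) was computed, which understates differences of low genes. Genes that reached an FPKM of 1 in 2 lines or more entered limma 3.58.1 (R 4.3.3, trended variance), with p-values adjusted by Benjamini-Hochberg over all 15650 and a threshold of 0.05; the script was first tested on simulated data. Lung lines were compared with the other 5 and endometrial lines with the other 6, with replicate numbers in accession order. Named were all members, the 5 genes most and least like CXXC5 and TET1, the 3 most abundant genes of each context list, and the neighbours of CXXC5. Members and lists were chosen with earlier results of these data known. Alternatives were pseudocounts of 0.1 and 5, no filter, upper-quartile and quantile scaling, no trend, the set of libraries as a term, and leaving out each line. Sets of libraries come from ratios of values under 0.1 alone.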

Additional observations from a re-analysis of the deposited data

Results flagged for a closer look

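Among 30 groups of lines examined for a value far from the rest (10 genes, over all 8 lines, the 5 non-lung lines and the 6 non-endometrial lines), 2 had one, and chance gives about 1 in 20. CXXC4 in H716, at an FPKM of 15.5, lay far above the other non-lung lines, with a gap of 0.927 of the range of log2 values against a critical 0.710. MBD1 in KLE, at 12.0, lay above the other non-lung lines, with a gap of 0.842 of a narrow range.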

How the results depend on the processing

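CXXC5 kept its lower level in the lung lines under all 15 alternatives (log2 difference -4.08 to -3.06). Since this gap chose CXXC5 and is wide, no alternative was likely to reverse it, and nothing is read from this. Its endometrial difference stayed above 0 (1.14 to 2.10). That endometrial difference restates the lung gap, since the lines it is set against include the lung lines, and KLE and HEC59 were the lowest non-lung lines. Of the other 9 members none was called in 270 combinations of comparison and setting, with a lowest adjusted p of 0.438 for CXXC4 in the lung comparison. The number of genes called for lung was 4, and 11 with a pseudocount of 0.1, 2 with one of 5, 1 with no filter and 2 with the set of libraries as a term. Without single lines it ranged from 1 to 16, at 16 without H146, 13 without H716, 8 without H661, 2 without either 1321N1 or HEC59, and 1 without COV318. For endometrial lines it was 1, and 4 with a pseudocount of 5 and 20 with no filter, and without single lines 1 to 30, at 30 without COV318, 5 without H146, 4 without KLE and 2 without HEC59. Small differences changed sign. For FBXL19 in the lung comparison the value was 3.2e-05 with the set as a term, and -0.280 to 0.0725 without single lines. For KDM2A in that comparison it was -0.231 to 0.339 without single lines. In the endometrial comparison MBD1 was at 0.0288 with upper-quartile and 0.00406 with quantile scaling (-0.282 to 0.0997 without single lines) and CXXC1 at 0.0722 and 0.00547 (-0.299 to 0.247). Without single lines TET1 ran from -0.929 to 1.57, TET3 from -0.00343 to 1.19, KDM2A from -0.373 to 0.951 and KDM2B from -0.128 to 0.474, the lowest in each case without HEC59. Of the 10 genes named for their likeness to CXXC5, 1 was among the 5 at its end by Spearman's rho and 6 with values centred per set. The cause was not tested. Summing identifiers of a repeated symbol gave nothing, as each member has 1 identifier. No paired analysis was possible because the lines are different tumours and their numbers follow accession order only. Depth is unknown, so how far it limits low genes such as CXXC4 and FBXL19 was not measured.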
